A study of Rattus with 12 samples.

Results

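The first 100 Mb of rat chromosome 1 held 429 named loci at a mean level of at least 1 FPKM in isolated thick ascending limbs, and 24 of them differed between salt-sensitive SS rats and consomic SS.BN1 rats at the authors' threshold. Members were the rows of the gene table that start below 100 Mb on chromosome 1, carry 1 gene name other than a contig or RNA family name, and have a mean of both strains of at least 1 FPKM (fragments counted per unit of transcript length and of library size). They were thus selected on position, name and mean level, in an interval proposed with results of the contrast between the strains known, so the ratios are given here as a description. They were 429 of 949 rows with such a name and of 1933 rows of any kind in the interval, in a table of 42915 rows. Nearest to the level threshold, Mia (mean 1.02 FPKM), Ggn (1.02) and AC135026.1 (1.01) lay just inside it, and Cd22 (0.995), Lama2 (0.968) and Stx11 (0.960) just outside. Of the 429 members, 399 matched a gene of the RefSeq table of the GRCr8 assembly, 395 of them protein-coding, 3 long noncoding RNAs and 1 a transcribed pseudogene.

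Tubules came from 12 male rats aged 7 weeks that ate a 0.4% NaCl diet and received no other treatment. The SS group was the inbred Dahl strain SS/JrHsdMcwi (6 rats), a model of salt-sensitive hypertension and kidney injury. The SS.BN1 group was the consomic strain SS-Chr 1BN/Mcwi (6 rats), which has the SS genome with chromosome 1 taken from the Brown Norway strain, so both groups share the SS background on the other chromosomes and every locus described here comes from a different parental strain in each group. One library was made per animal, but each expression table was deposited with a single FPKM column for each strain, which leaves the values below without an error between animals. The comparison bears on what exchanging chromosome 1 does to the tubule's transcriptome.

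The medullary thick ascending limb reabsorbs salt through an apical Na-K-2Cl cotransporter driven by the basolateral sodium pump, and it runs beside the straight proximal tubule in the outer medulla. A consomic exchange can change a gene on the swapped chromosome through its own sequence (in cis) or through other genes (in trans), and a single pair of strains does not separate these. The stretch holds genes that act early in stress and inflammatory signalling, including the NF-kB proteins RelB and Bcl-3, their brake A20 and the AP-1 subunit FosB. It also holds organic ion and amino acid carriers, an immunoglobulin-like receptor family, a large group of zinc finger repressors, and housekeeping genes of mitochondria and ribosomes.

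Libraries held 42.3 to 59.8 M reads, with 47.7 to 57.7 M in SS and 42.3 to 59.8 M in SS.BN1. Mapped reads made up 85.85% ± 0.34 in SS and 85.3% ± 0.52 in SS.BN1 (SD, n = 6 each; exact permutation test, two-sided, p = 0.0584, adjusted over 2 library measures 0.117). Thick ascending limb markers dominated both preparations: 9 of 10 listed markers had a row of their own, and none was called. Their summed level was 14454 FPKM in SS against 12576 in SS.BN1, and SS was the higher at 8 of the 9. Umod alone had 10174 FPKM in SS against 8492 in SS.BN1. Without Slc9a3, a member of the interval, the sum was 14210 FPKM in SS against 12344 in SS.BN1. Proximal tubule markers that lie outside the interval summed to 554 FPKM in SS against 236 in SS.BN1 over 13 genes, and 7 of the 8 that the authors tested were called higher in SS. SS was the higher at 12 of these 13 genes. Among them, some early proximal tubule carriers were near 0. Slc5a2 had 0.204 FPKM in SS against 0.153 in SS.BN1, and Slc6a19 had 0.0854 FPKM in SS against 0.032 in SS.BN1. Slc5a12, also near 0, went the other way, with 0.0328 FPKM in SS against 0.0906 in SS.BN1. Collecting duct markers stood lower in SS: the 4 principal cell markers summed to 210.1 FPKM in SS against 266 in SS.BN1, all 4 lower in SS and Aqp2 called, and the 4 intercalated cell markers summed to 78.6 FPKM in SS against 98.3 in SS.BN1, 3 of 4 lower in SS with no call. Expression of a gene in such a bulk preparation is a product of cell numbers and RNA per cell, and fewer cells of a type cannot be told apart from less RNA per cell.

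Most loci of the interval had nearly the same level in both strains. The median log2 ratio of SS over SS.BN1 was 0.01, beside 0.00 over all 13253 rows the authors tested, and the quartiles were -0.09 and 0.14. Within 0.2 of 0 on the log2 scale lay 293 members (68.3%), beside 66.5% of all tested rows. SS was the higher at 223 members and the lower at 206. At 24 members the ratio was at least 1 away from 0 on the log2 scale, 23 toward SS and 1 toward SS.BN1.

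The authors tested 411 of the 429 members and left 18 untested, all below 2 FPKM on average. A member is called here where the authors' deposited table gives a q (their p adjusted over all tested rows) under 0.05. By that rule 23 members were called higher in SS and 1 was called higher in SS.BN1. Across all tested rows 3.32% were called higher in SS and 0.0981% were called higher in SS.BN1. Among the tested members 5.60% were called higher in SS, and over 10176 tested rows of the whole series under the same name and level rule 3.81% were. The share in the interval was not tested against these, since the interval was chosen with results of this contrast known. Of the 24 calls, 16 had the smallest p in the authors' deposited table, 5e-05, which gives q = 0.00266. Another 14 members had an unadjusted p under 0.05 without a call, 12 with the higher value in SS and 2 with the lower.

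**Figure D1:**
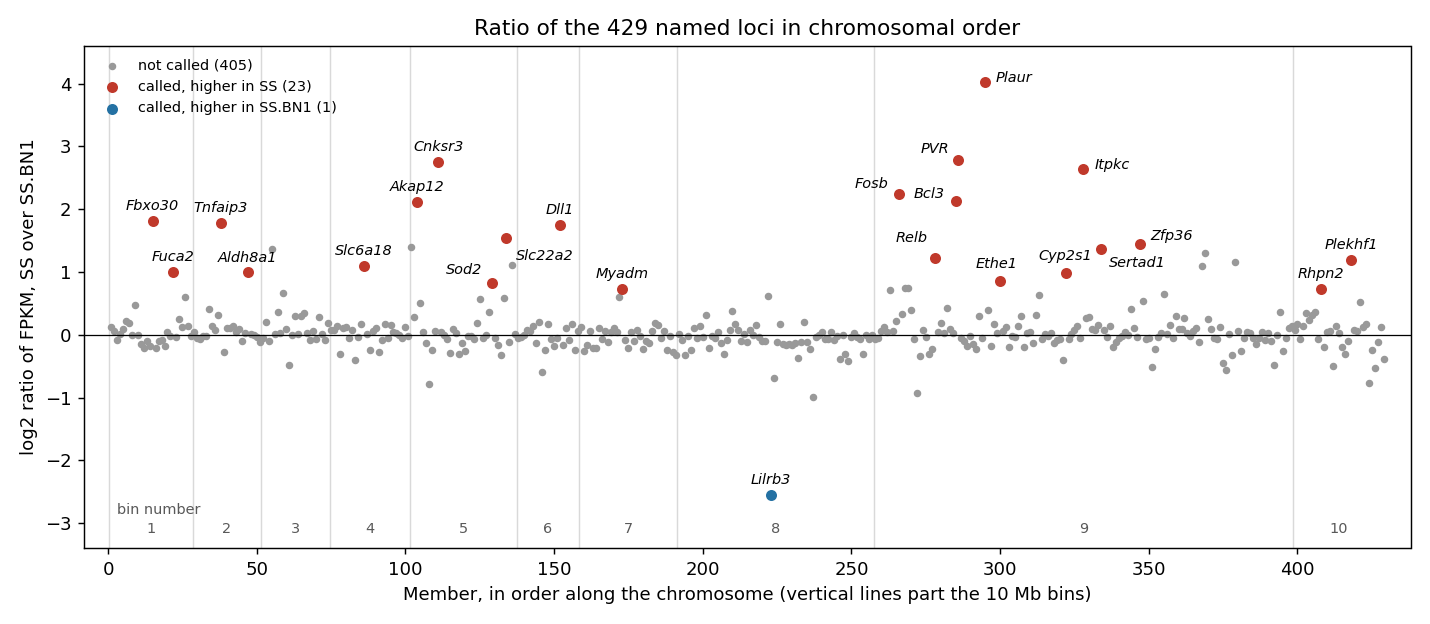
Each point is 1 of the 429 named loci, placed by its order along the chromosome (x axis) and by the log2 ratio of FPKM in SS over SS.BN1 (y axis), with calls in colour and vertical lines parting the 10 Mb bins. The 23 calls toward SS reach 4.02 for Plaur, while Lilrb3 is the single call toward SS.BN1 at -2.55.

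The role list of immediate early, stress and NF-kB regulators held 7 of the 24 calls, all toward SS. The list named 27 such genes, and 21 of them were members and tested. The 7 calls are 33.3% of the 21, beside 3.32% called higher in SS over all tested rows, in a list chosen with results known. SS was the higher at 17 of the 21, and their log2 ratios had a median of 0.36, beside 0.00 over all tested rows. Markers of the proximal tubule also stood higher in SS in these preparations, with a median log2 ratio of 1.26, and whether they account for any of these differences was not tested. Fosb (chr1:80214494-80221799), an AP-1 component that appears within minutes of a stimulus, stood at 296 FPKM in SS against 62.2 in SS.BN1. The deposited locus of Zfp36, chr1:85362268-85382796, is shared with Paf1 and Med29. Zfp36 encodes tristetraprolin, which binds AU-rich elements and speeds the decay of cytokine mRNAs. It was among the most abundant members, with 877 FPKM in SS against 321 in SS.BN1 (the authors' deposited table gives q = 0.00902).

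Of the 5 regulators of the NF-kB system itself on that list, 3 were called and 2 were not. Over all tested rows 3.32% were called higher in SS, and the list was chosen with results known. Tnfaip3 (chr1:14401030-14416325), whose product A20 edits ubiquitin chains and shuts NF-kB signalling off, had 26.8 FPKM in SS against 7.83 in SS.BN1 (log2 ratio 1.78). Relb (chr1:80517001-80545024), the NF-kB subunit of the noncanonical pathway, had 14.5 FPKM in SS against 6.25 in SS.BN1 (log2 ratio 1.22). Bcl3 (chr1:80730499-80745035), a nuclear IkB protein that works as a coactivator, had 15.7 FPKM in SS against 3.61 in SS.BN1 (log2 ratio 2.13). Each of these 3 calls had q = 0.00266 in the authors' deposited table. Nfkbid, a further nuclear IkB protein, had 4.09 FPKM in SS against 1.83 in SS.BN1 and was not called (the authors' deposited table gives q = 0.0929). Nfkbib, which encodes the cytoplasmic inhibitor IkB-beta, had 10.7 FPKM in SS against 6.85 in SS.BN1 with q = 0.523 in the authors' deposited table.

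Plaur and Akap12 completed the called members of that list. Plaur (chr1:81328183-81344708), the receptor that concentrates urokinase on the cell surface, had the largest ratio in the interval, with 26.2 FPKM in SS against 1.62 in SS.BN1 (16.2-fold). A pseudocount of 1 FPKM brought its log2 ratio to 3.38, against 4.02 without one. Akap12 (chr1:40816107-40906581), a scaffold that anchors protein kinase A and protein kinase C, had 10.9 FPKM in SS against 2.52 in SS.BN1 (log2 ratio 2.12).

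The other 14 members of the list were not called, including some of its most abundant. Cited2, a CBP/p300-binding regulator that limits HIF activity, stood at 93.5 FPKM in SS against 90.2 in SS.BN1. Ctgf, a matricellular protein induced by TGF-beta and YAP, had 70.4 FPKM in SS against 54.9 in SS.BN1. Sgk1, the aldosterone-responsive kinase that raises epithelial sodium transport, had 51.3 FPKM in SS against 40.5 in SS.BN1. Both Ctgf and Sgk1 had a log2 ratio of about 0.3, at 0.36 and 0.34, without a call. Tgfb1 stood on the other side of 0, with 5.78 FPKM in SS against 6.31 in SS.BN1, as did the receptor tyrosine kinase Axl, with 5.21 FPKM in SS against 6.89 in SS.BN1.

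Matched to no role list by symbol were 12 of the 23 calls toward SS, out of 308 such members tested. That is 3.90%, beside 3.32% called higher in SS over all tested rows. PVR is among the 12 only because its spelling differs from Pvr on the immune receptor list. Members matched to no list had a median log2 ratio of 0.00. Cnksr3 (chr1:43789791-43884267) had 88.2 FPKM in SS against 13.1 in SS.BN1 (6.75-fold). It encodes a scaffold protein that is induced by aldosterone and supports the epithelial sodium channel in collecting duct cells. All 4 principal cell markers were lower in SS, and the part of collecting duct cells in the Cnksr3 ratio was not tested. The gene that the table spells PVR (chr1:80820050-80835701), the poliovirus receptor CD155 and a ligand of receptors on natural killer cells, had 52.9 FPKM in SS against 7.69 in SS.BN1 (6.88-fold). Nectin2, a related adhesion molecule and ligand, had 28.5 FPKM in SS against 21.2 in SS.BN1 without a call (the authors' deposited table gives q = 0.622). Itpkc (chr1:84018859-84040433), a kinase that phosphorylates inositol trisphosphate and so dampens calcium release, had 44.7 FPKM in SS against 7.19 in SS.BN1 (6.21-fold). These 3 called genes and Plaur were the only members with a called ratio above 5-fold toward SS.

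Also on no role list, Sertad1 (chr1:84293102-84296367), a coregulator that binds CDK4, had 31.0 FPKM in SS against 12.1 in SS.BN1, while its neighbour Sertad3 had 4.07 FPKM in SS against 3.67 in SS.BN1 and was not called. Fbxo30 (chr1:5366125-5395339), a substrate receptor of an SCF ubiquitin ligase, had 44.5 FPKM in SS against 12.7 in SS.BN1 (log2 ratio 1.81). Plekhf1 (chr1:94591478-94616666), an endosomal protein with PH and FYVE domains, had 22.4 FPKM in SS against 9.80 in SS.BN1. The Notch ligand Dll1 (chr1:57318708-57327379) was the faintest call toward SS, with 1.60 FPKM in SS against 0.476 in SS.BN1 (the authors' deposited table gives q = 0.0208). With a mean of 1.04 FPKM, Dll1 met the level rule only through its SS value. Its log2 ratio of 1.75 became 0.82 with a pseudocount of 1 FPKM.

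The calls with the smallest folds were Myadm and Rhpn2. Myadm (chr1:64438472-64448331), a tetraspan membrane protein, had 49.1 FPKM in SS against 29.5 in SS.BN1. Rhpn2 (chr1:91596199-91663467, a deposited locus shared with Faap24) had 18.5 FPKM in SS against 11.2 in SS.BN1. Each had a log2 ratio of 0.73, the smallest among the called members. Fuca2 (chr1:7658890-7673683), a secreted fucosidase, had 20.7 FPKM in SS against 10.3 in SS.BN1 (log2 ratio 1.00).

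**Figure D2:**
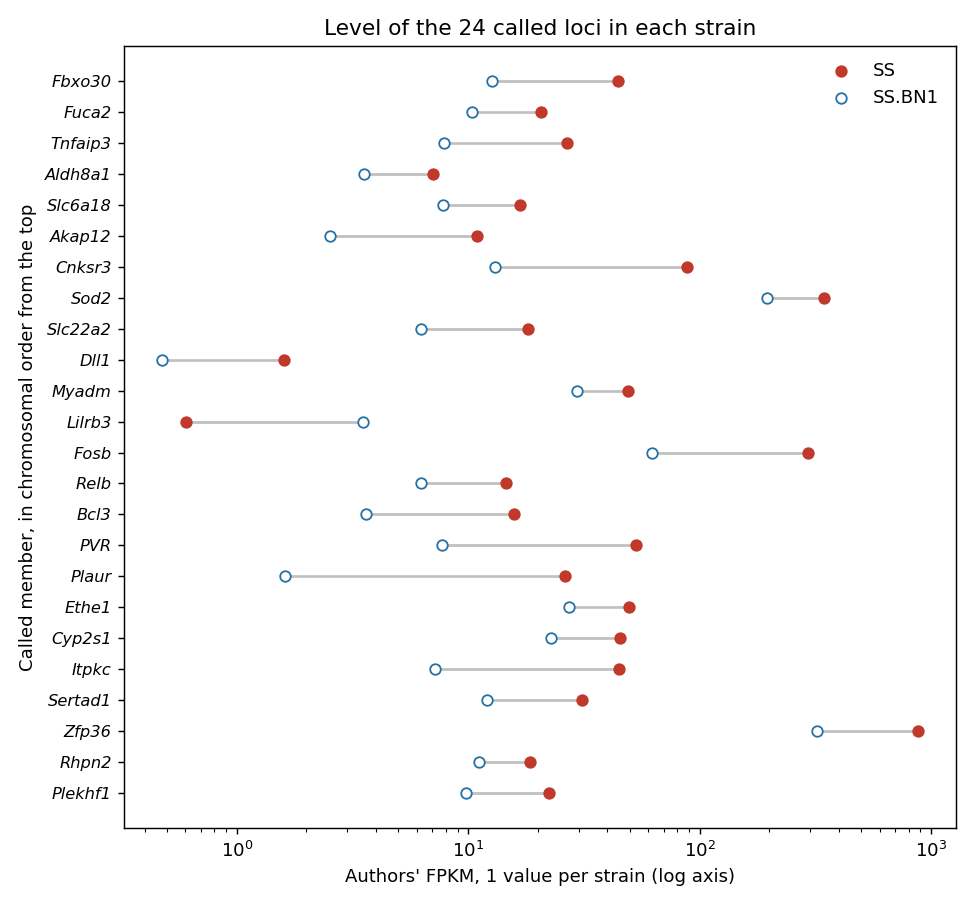
The 24 called loci run from the start of the chromosome (top) downward, and the x axis gives the authors' FPKM on a log scale, filled for SS and open for SS.BN1, 1 value per strain with no error. SS lies to the right in 23 rows, over SS levels from 1.60 FPKM (Dll1) to 877 FPKM (Zfp36), and Lilrb3 is the row in which SS lies to the left.

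Among the transport genes, a pair of proximal tubule carriers was called higher in SS, and the other 7 tested members were not called. The pair is 22.2% of the tested members, beside 3.32% called higher in SS over all tested rows, in a list chosen with results known. Slc22a2 (chr1:48317995-48360261), the basolateral organic cation transporter OCT2, had 18.2 FPKM in SS against 6.27 in SS.BN1 (log2 ratio 1.54). Slc6a18 (chr1:32221636-32237387), an apical carrier of neutral amino acids, had 16.8 FPKM in SS against 7.82 in SS.BN1 (log2 ratio 1.10, q = 0.0394 in the authors' deposited table). Both are on the list of proximal tubule markers, whose members outside the interval had a median log2 ratio of 1.26. Kap, the most abundant of these, had 290.3 FPKM in SS against 120.5 in SS.BN1, and the endocytic receptor Lrp2 had 7.86 FPKM in SS against 2.83 in SS.BN1. The part of proximal tubule cells in the ratios of Slc22a2 and Slc6a18 was not tested.

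Slc9a3, the apical sodium-proton exchanger NHE3, was the most abundant member of the transport list, with 244 FPKM in SS against 232 in SS.BN1 (log2 ratio 0.08). Slc1a5, a glutamine carrier, had 42.6 FPKM in SS against 41.4 in SS.BN1. Slc12a7, the potassium-chloride cotransporter KCC4, had 21.1 FPKM in SS against 18.8 in SS.BN1. The list named 24 carriers, channels and pump regulators, of which 10 were members, 9 were tested and 2 were called. SS was the higher at 8 of the 10 members, whose median log2 ratio was 0.13.

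Sod2 (chr1:47914759-47921587), the manganese superoxide dismutase of the mitochondrial matrix, had 346 FPKM in SS against 196 in SS.BN1 (log2 ratio 0.82, q = 0.0108 in the authors' deposited table). It was the only call among 16 tested members of the mitochondrial and energy list, beside 3.32% called higher in SS over all tested rows. Of these members 11 were higher in SS around a median log2 ratio of 0.03. Cyp2s1 (chr1:82595211-82610350), an epithelial cytochrome P450, had 45.3 FPKM in SS against 22.8 in SS.BN1, whereas its family member Cyp2t1 had 5.60 FPKM in SS against 5.87 in SS.BN1. Ethe1 (chr1:81456984-81472097), which oxidises sulfide-derived persulfides in mitochondria, had 49.5 FPKM in SS against 27.3 in SS.BN1, with the largest q of the called members in the authors' deposited table, 0.0443. Aldh8a1 (chr1:16910069-16930481), an aldehyde dehydrogenase, had 7.04 FPKM in SS against 3.54 in SS.BN1 (the authors' deposited table gives q = 0.0382).

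The abundant housekeeping loci differed little. Mpc1, a subunit of the mitochondrial pyruvate carrier, had 879 FPKM in SS against 883 in SS.BN1. The serine protease inhibitor Spint2 had 904 FPKM in SS against 847 in SS.BN1, and hepsin (Hpn), a membrane protease of the thick ascending limb, had 99.3 FPKM in SS against 92.6 in SS.BN1. Subunits of the respiratory chain stood close together: Cox6b1 had 628 FPKM in SS against 610.0 in SS.BN1, Ndufa3 had 620 in SS and 600.2 in SS.BN1, and Sdha had 287 in SS and 265 in SS.BN1. The 9 members of the list of secreted proteins, proteases and lipid carriers, to which Spint2 and Hpn belong, had a median log2 ratio of 0.10 and no call, with 2 (Enpp3 and Igf2r) at an unadjusted p under 0.05. The ribosomal protein genes Rps12, Rpl28 and Rps19 had log2 ratios between -0.01 and 0.13, with no call and none at an unadjusted p under 0.05. Rps12 had 567 FPKM in SS against 571 in SS.BN1.

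Lilrb3 (chr1:73609740-73619596) was the single member called higher in SS.BN1. It encodes an inhibitory immunoglobulin-like receptor of myeloid cells and had 0.604 FPKM in SS against 3.53 in SS.BN1, a 5.84-fold higher level in SS.BN1. Lilrb3 met the level rule only through its SS.BN1 value. With a pseudocount of 1 FPKM its log2 ratio was -1.50, against -2.55 without one. Its relatives in the same cluster gave mixed values without a call: Lilra5 had 1.20 FPKM in SS against 1.93 in SS.BN1, and Lilrb4 had 7.70 FPKM in SS against 4.99 in SS.BN1. Genes of this family resemble each other closely, and since the counting could divide reads among copies, the values of all 3 are uncertain. Whether reads from the SS and the Brown Norway versions of these genes mapped equally well was not tested.

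The list of immune receptors and immunoglobulin superfamily genes had 6 members by exact symbol, 3 higher and 3 lower in SS. Lilrb3 was the call among the 5 tested, beside 0.0981% called higher in SS.BN1 over all tested rows. PVR, which the list names as Pvr, was missed by the match on spelling. It was called higher in SS, with 52.9 FPKM in SS against 7.69 in SS.BN1. The complement receptor C5ar1 had 1.73 FPKM in SS against 3.42 in SS.BN1 (the authors' deposited table gives q = 0.388). Tyrobp, an adaptor of myeloid receptors, had 15.8 FPKM in SS against 19.7 in SS.BN1, and Siglec5, which was not tested, had 0.813 FPKM in SS against 1.38 in SS.BN1. Immune markers outside the interval summed to 383 FPKM in SS against 375 in SS.BN1 over 5 genes, with Cd14 higher in SS as their only call. Of these 5, SS was the higher for Cd14, Cd68 and Cd74 and the lower for Csf1r and Ptprc. Csf1r had 7.89 FPKM in SS against 13.5 in SS.BN1, and Cd68 had 6.69 FPKM in SS against 5.43 in SS.BN1. The part of immune cell content in the Lilrb3 ratio was not tested.

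Exoc3l2, a relative of the exocyst subunits, had 4.28 FPKM in SS against 8.13 in SS.BN1 and narrowly missed the threshold (the authors' deposited table gives q = 0.0511). It was, with C5ar1, 1 of 2 uncalled members lower in SS at an unadjusted p under 0.05. Endothelium, in which Exoc3l2 is known to be expressed, had a marker list that summed to 52.4 FPKM in SS against 69.7 in SS.BN1 over 5 genes. SS was the higher at 2 of the 5 (Cdh5 and Flt1), and Tek, higher in SS.BN1, was the only call among them. Whether endothelial content bears on Exoc3l2 was not tested.

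Zinc finger transcription factors formed the largest role list, with 40 members by symbol. Zfp36 falls under the symbol prefix without being a transcription factor, and it was the only call among them. Without it, 11 of 39 stood higher in SS and 28 lower, around a median log2 ratio of -0.05, and none of 36 tested members had an unadjusted p under 0.05. The most abundant were Zfp574 (20.7 FPKM in SS, 18.8 in SS.BN1), Zfp61 (17.0 in SS, 18.8 in SS.BN1) and Zfp180 (16.7 in SS, 17.2 in SS.BN1). Genes with these symbols on other chromosomes had a median log2 ratio of -0.09, with 51 of 195 higher in SS, so the lean toward SS.BN1 was present on chromosomes that the strains share. The 39 members had a median mean level of 4.92 FPKM. Of all interval members between 2 and 5 FPKM, 32.5% stood higher in SS, and whether level bears on the lean was not tested. Copies within a zinc finger cluster resemble each other, and reads may be shared out among them.

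Imprinted genes, which are expressed from 1 parental copy, differed from each other in direction. Igf2r, the receptor that clears insulin-like growth factor 2 and carries lysosomal enzymes, had 23.2 FPKM in SS against 15.4 in SS.BN1 without a call (the authors' deposited table gives q = 0.339). Plagl1, a growth-restraining zinc finger factor, had 24.0 FPKM in SS against 27.2 in SS.BN1, and Zim1 had 9.87 FPKM in SS against 12.4 in SS.BN1. Peg3 stood at 15.7 FPKM in SS against 15.5 in SS.BN1. Slc22a2, which lies near Igf2r and is imprinted in mouse placenta, was the only call among these 6 members. The share called higher in SS over all tested rows was 3.32%.

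**Figure D3:**
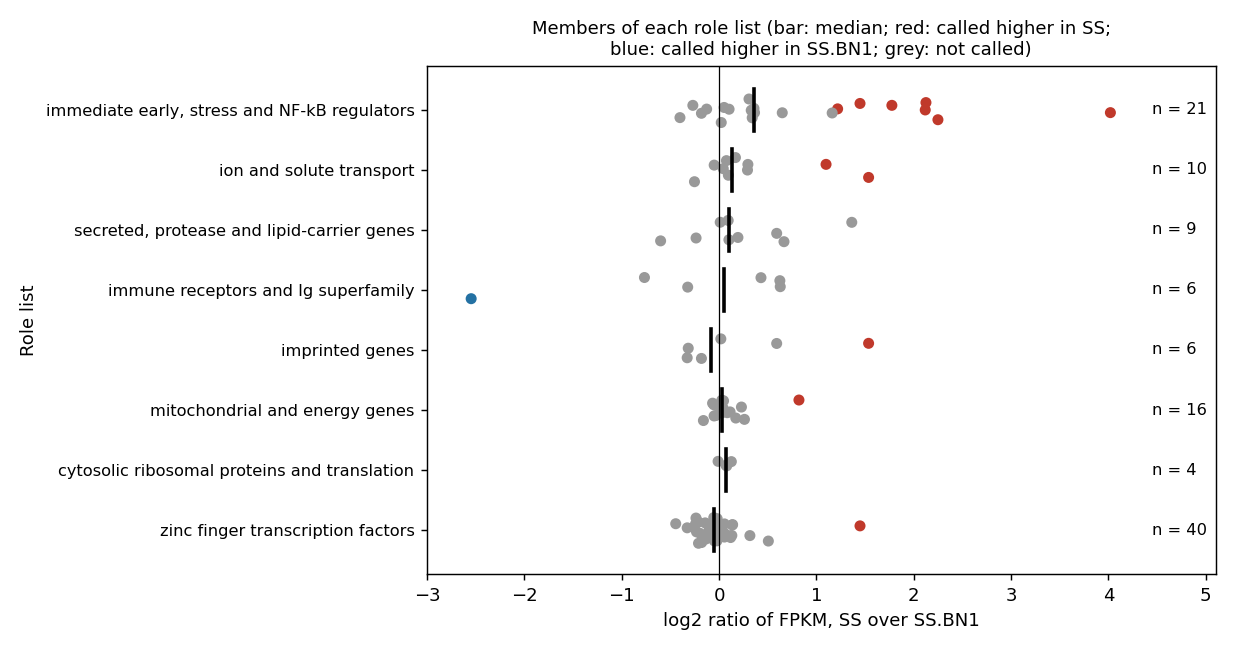
Each row is a role list, each point a member, and the x axis gives the log2 ratio of FPKM in SS over SS.BN1, with a bar at the list's median and calls in colour. The stress and NF-kB list reaches from -0.40 to 4.02 around a median of 0.36, whereas the ribosomal list spans -0.01 to 0.13. Some members, such as Zfp36 and Slc22a2, appear in more than 1 row. PVR is absent from the immune receptor row because its spelling differs from the listed Pvr.

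Ratios were also laid out along the chromosome in bins of 10 Mb. Medians per bin lay between -0.06 and 0.05 on the log2 scale, and the interquartile ranges within bins ran from 0.15 to 0.52. The 80 to 90 Mb bin held the most members, 141, and the most calls, 10 of 137 tested (7.30%). The 40 to 50 Mb bin, which holds Akap12, Cnksr3, Sod2 and Slc22a2, followed with 4 calls of 33 tested, the largest share at 12.1%. It also had the widest interquartile range. The calls of both bins were all toward SS, and over all tested rows 3.32% were called higher in SS. The 20 to 30 Mb bin had no call among 21 tested members, 1 of them with an unadjusted p under 0.05. Its largest ratio at 2 FPKM or more was that of Ctgf.

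In the 70 to 80 Mb bin 47 of 66 members had the lower value in SS, with a median log2 ratio of -0.06 and Lilrb3 as its only call. Quartiles of -0.14 and 0.01 show how small these differences were. In bins of 5 Mb the lean was strongest between 75 and 80 Mb, where 5 of 30 members (16.7%) were higher in SS, around a median log2 ratio of -0.07. Just beyond that stretch the members leaned the other way: between 80 and 85 Mb SS was the higher at 59.5% of 84 members. With 1 value per strain these leans could not be set against the spread between animals.

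**Figure D4:**
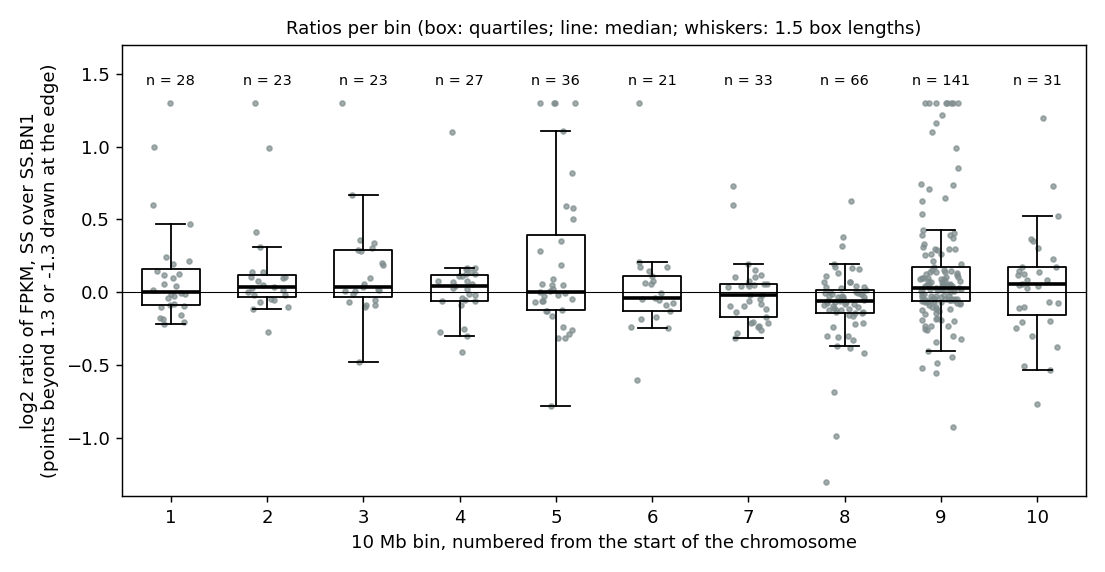
Boxes give the quartiles and medians of the log2 ratio (y axis, SS over SS.BN1) in 10 bins of 10 Mb numbered from the start of the chromosome (x axis), with a point per member, drawn at the edge where it lies beyond it. All 10 medians lie within 0.06 of 0, and the lowest is that of bin 8, at -0.06.

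Of the 24 calls, 10 lay between Fosb and Zfp36, a stretch of 5.17 Mb that was marked out after its values were seen. The stretch begins and ends with a call. Its 10 calls, all toward SS, are 12.5% of 80 tested members, beside 3.32% called higher in SS over all tested rows. It held 82 members, and its median log2 ratio was 0.03. Its interquartile range was 0.35, beside 0.22 for the members outside it. Loci between the calls varied in their ratios. Bcl3 and PVR are next to each other among the members, yet Zfp180 follows PVR with 16.7 FPKM in SS against 17.2 in SS.BN1. Immediately before Bcl3 lies Cblc, an adaptor of epithelial receptor degradation, with 4.26 FPKM in SS against 4.19 in SS.BN1, and before it Bcam, a laminin-binding adhesion molecule, with 94.6 FPKM in SS against 88.5 in SS.BN1. Nectin2, the next one before, had a log2 ratio of 0.43, and Ppp1r13l, between Fosb and Relb, had 0.75, both without a call. Elsewhere the calls were spaced by 5 to 61 members. Outside that stretch 14 of 331 tested members were called (4.23%), 13 of them toward SS (3.93% of those tested).

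Neighbouring members had little in common beyond what loci on other chromosomes showed. The log2 ratios of adjacent members differed by a median of 0.20, and adjacent loci on the other chromosomes under the same rule by 0.18. Pearson's r between adjacent members was 0.12 (Spearman's rho 0.16, 428 pairs), and 0.10 (rho 0.09, 9277 pairs) on the other chromosomes. Adjacent loci share the libraries, and 48 of the 429 members overlap another member in position, so the pairs are not independent. Of the called genes, Zfp36 and Rhpn2 overlap another member. Each was deposited with the same coordinates as the members it overlaps, so these are positions of a joint locus and not of the gene.

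The remaining parts of the chromosome gave similar medians under the same rule. From 100 to 200 Mb 443 loci had a median log2 ratio of -0.01, and 12 of 421 tested were called, all higher in SS. Beyond 200 Mb 495 loci had a median of 0.02, and 20 of 471 tested were called, 19 toward SS and 1 toward SS.BN1. On the other chromosomes, which come from SS in both groups, 342 of 8873 tested loci were called, 334 toward SS and 8 toward SS.BN1. Interquartile ranges of the log2 ratio were 0.23 in the first 100 Mb, 0.25 and 0.26 in the following parts, and 0.23 on the other chromosomes. Shares called among tested loci were 5.84% in the first 100 Mb, 2.85% and 4.25% in the following parts and 3.85% on the other chromosomes. Over all tested rows of the series 3.42% were called. These shares were set side by side without a test.

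Spread, calls and direction varied with level. SS was the higher at 48.6% of members between 1 and 2 FPKM and at 32.5% between 2 and 5 FPKM. This share was 51.4% from 5 to 20 FPKM, 63.5% from 20 to 100 FPKM and 76.2% at 100 FPKM or more. The interquartile range of the log2 ratio was 0.46 among the 37 members between 1 and 2 FPKM, 0.29 among 83 between 2 and 5 FPKM, and 0.15 among 21 at 100 FPKM or more. Between 1 and 2 FPKM Dll1 was the 1 call of 19 tested, and between 2 and 5 FPKM Lilrb3 was the 1 call of 83. From 5 to 20 FPKM 11 of 173 were called, from 20 to 100 FPKM 8 of 115, and at 100 FPKM or more 3 of 21 (Zfp36, Sod2 and Fosb). Called members had a median mean level of 16.7 FPKM and a median locus span of 15.7 kb, and the tested members without a call had 11.6 FPKM and 20.4 kb. At least 10 FPKM was reached by 21 of the 24 called members in SS and by 11 of them in SS.BN1. Of 387 tested members without a call, 214 reached it in SS and 215 in SS.BN1. The mean level includes the SS value, which was the higher in 23 of the 24 calls. These levels of the called members thus follow in part from the calls themselves.

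Some large ratios were not called. Iyd, an iodotyrosine deiodinase, had 2.06 FPKM in SS against 0.783 in SS.BN1 (log2 ratio 1.39, q = 0.185 in the authors' deposited table). Enpp3, an ectonucleotidase, had 1.72 FPKM in SS against 0.667 in SS.BN1 (the authors' deposited table gives q = 0.0623), and its neighbour Enpp1 had 15.1 FPKM in SS against 14.9 in SS.BN1. Both Iyd and Enpp3 met the level rule only through their SS values. Agpat4, an acyltransferase of phospholipid synthesis, had 5.18 FPKM in SS against 2.40 in SS.BN1 (the authors' deposited table gives q = 0.107). Ezr, the linker of actin to the apical membrane, was the most abundant member with an unadjusted p under 0.05 and no call, with 127 FPKM in SS against 85.5 in SS.BN1. Ppp1r13l, which encodes iASPP, an inhibitor of p53 and of the NF-kB subunit p65, had 8.13 FPKM in SS against 4.85 in SS.BN1 (the authors' deposited table gives q = 0.196). Hivep2, a zinc finger factor that binds kB-like sites, had 8.86 FPKM in SS against 5.86 in SS.BN1 (the authors' deposited table gives q = 0.114).

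Each bin of 10 Mb contributed its largest uncalled ratio at 2 FPKM or more. Besides Hivep2, Ctgf, Agpat4, C5ar1 and Nfkbid, given above, these were small. Nhsl1 had 12.9 FPKM in SS against 9.66 in SS.BN1, and Iglon5, a cell adhesion protein, had 11.8 FPKM in SS against 8.22 in SS.BN1. The other 3 were lower in value in SS: Ccdc127 had 12.9 FPKM in SS against 15.9 in SS.BN1, Rgmb, a bone morphogenetic protein coreceptor, had 11.2 in SS and 13.3 in SS.BN1, and the kinase Aurkc had 4.92 in SS and 5.98 in SS.BN1.

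The isoform table split the 429 members into 1359 isoforms, of which the authors tested 812. At the same threshold on q, 14 isoforms of members were called toward SS and 1 toward SS.BN1. Across all 23688 tested isoforms 1.04% were called higher in SS and 0.0127% were called higher in SS.BN1. All 15 belonged to 14 members that were also called as genes. The gene value is the sum of its isoforms (to within 6.2e-06 of its size), so this is no separate evidence. Of the called members with 1 isoform, Sod2, Zfp36, Itpkc, Sertad1, Cyp2s1 and Fuca2 were called in the isoform table, and Aldh8a1 and Dll1 were not.

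Of the members called as genes, 10 had no called isoform. Aldh8a1 and Dll1 have 1 isoform each with the gene's own values, and in the authors' deposited table its q was 0.0935 for Aldh8a1 and 0.0515 for Dll1, over the larger number of isoforms tested. Slc22a2, Rhpn2, Myadm and Ethe1 had between 92.4% (Ethe1) and 98.3% (Slc22a2) of their SS level in 1 isoform, which was not called either. In Fosb, Bcl3, Relb and Slc6a18 the level was spread over more isoforms. Fosb was split into 7, of which the largest had 113 FPKM in SS against 25.2 in SS.BN1 (the authors' deposited table gives q = 0.219). Bcl3 was split into 5, led by one with 8.43 FPKM in SS against 1.77 in SS.BN1. Slc6a18 was split into 10, led by one with 5.58 FPKM in SS against 1.59 in SS.BN1.

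Isoform shares shifted by 20 percentage points or more for 13 isoforms of 8 members, counted over the 381 members with at least 2 FPKM in both strains. None of the 13 was called, and some of them were not tested. A call concerns the level of an isoform and not its share, so its absence does not bear on these shifts. Such shifts were not counted here over the rest of the series. Lilrb4 had the largest shift: its assembled isoform MSTRG.763.2 made up 16.9% of the gene in SS and 84.8% in SS.BN1, and MSTRG.763.3 made up 45.4% in SS and 0.001% in SS.BN1. For Cnksr3 the assembled isoform MSTRG.359.5 made up 47.2% in SS and 22.5% in SS.BN1, with 41.6 FPKM in SS against 2.93 in SS.BN1, while the annotated isoform ENSRNOT00000024418 had 24.7 FPKM in SS against 5.28 in SS.BN1 and was called (the authors' deposited table gives q = 0.0319). Cblc, at nearly equal gene level, had ENSRNOT00000092048, which was not tested, at 0.201% in SS against 25.4% in SS.BN1. For Relb the isoform ENSRNOT00000057802 made up 31.7% in SS and 8.77% in SS.BN1. For Plaur, which has under 2 FPKM in SS.BN1 and is not among the 8, ENSRNOT00000075167 made up 28.1% in SS and 0.677% in SS.BN1. Shares of isoforms are model estimates from overlapping reads, and here they carry no error.

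**Figure D5:**
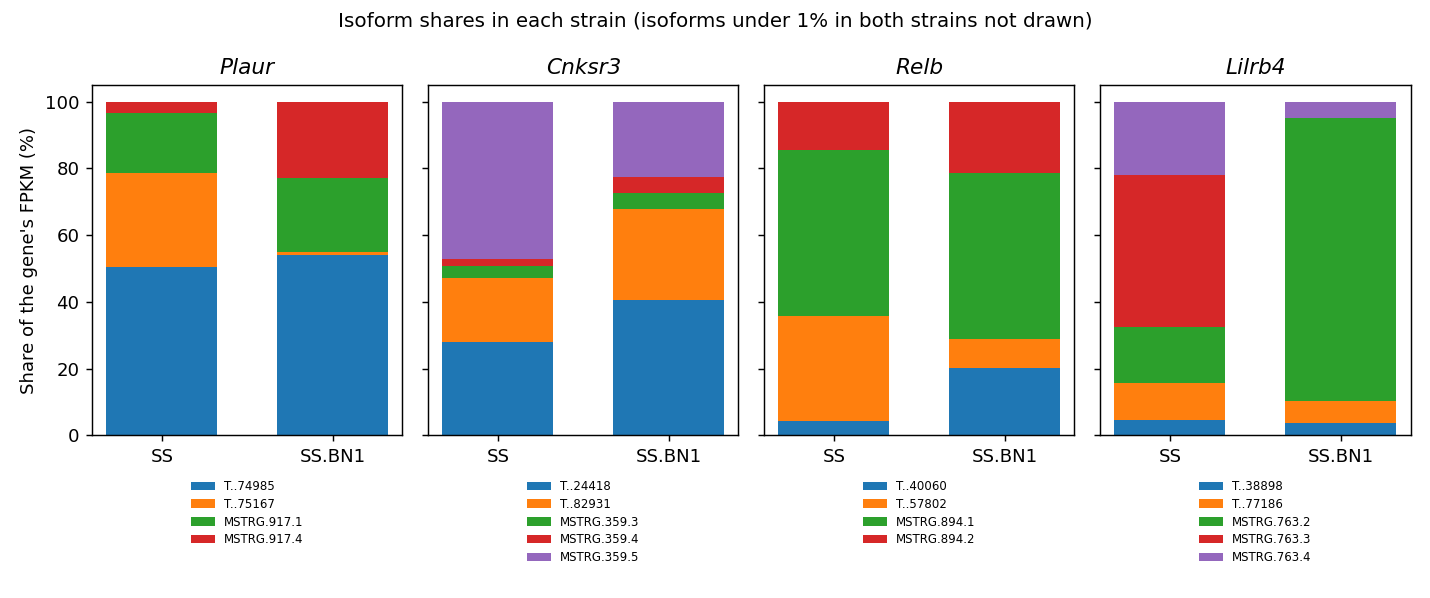
Stacked bars give the share of each isoform in the gene's FPKM (y axis, percent) in SS (left) and SS.BN1 (right) for 4 members, 1 value per strain. MSTRG.763.2 of Lilrb4 takes 16.9% in SS and 84.8% in SS.BN1, and MSTRG.359.5 of Cnksr3 takes 47.2% in SS and 22.5% in SS.BN1.

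Outside the naming rule the interval held 3 further calls, all higher in SS. A row that joins Ipcef1 with a contig-named locus had 4.70 FPKM in SS against 1.39 in SS.BN1. The other two were a contig-named locus and a row without a name. None of the 520 named rows below the level threshold was tested by the authors.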

How the data were processed

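RNA of thick ascending limbs picked under a microscope from 12 rats was sequenced in pairs from stranded total-RNA libraries, per the labels' protocols. Per the submitters' processing notes, the build was rn5 and the tools were Cufflinks 2.2.1, StringTie, TopHat2 2.1.1, FastQC and cutadapt, with no roles given. The deposited FPKM values are the authors' own, with a single value for each strain. The way in which 6 libraries gave 1 value is not stated in the labels. The deposited p-values and q-values are also the authors', and adjusting their p over the 13253 tested genes by the Benjamini-Hochberg method gave their q to within 5.3e-07. Nor do the labels say how far the test used variation between animals. Counts of reads and percent of reads mapped per library were deposited by the authors as well. Whether reads from the SS and the Brown Norway chromosome 1 mapped equally well at each locus was not tested.

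Coordinates are as deposited with 1 added to the start, since starts count from 0 (of 31 mitochondrial rows, 26 start where a different one ends). Their build is not settled: 6832 rows carry AABR07 contig names, which belong to an assembly later than rn5. RefSeq's GRCr8 table was used for names and biotypes only, and no sequence was used.

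Log2 ratios are SS over SS.BN1 without a pseudocount. Library measures were compared by exact permutation (smallest possible p 0.00216). Members, role lists and marker lists were chosen with earlier results of these data known, so no list was tested. Named members were calls (at most 20 per direction by q), the 10 most abundant, the largest uncalled ratio per bin, leading list members, and those at the level threshold. Others, such as Aldh8a1, Ethe1, Iyd, Enpp3, Exoc3l2, Ppp1r13l, Cblc, Bcam and Ezr, were named after their values were seen. One of the most abundant members is not reported here. The code was checked on simulated data. Software versions were matplotlib 3.10.9, SciPy 1.17.1, pandas 2.3.3 and NumPy 2.4.6 under Python 3.11.15. Alternatives tried were other thresholds on q and level, pseudocounts, centring, summed isoforms, 5 Mb bins, joined rows and, added after the data were seen, leaving out members that are cell type markers.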

Additional observations from a re-analysis of the deposited data

How the results depend on the processing

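No paired analysis was possible because expression was deposited as 1 value per strain and the labels number no pairs, and for the same reason no animal could be left out. The count of members called higher in SS was 23, and it was 16 with q under 0.01 and 22 at a mean of 5 FPKM or more. It was 23 with no minimum level, which could not differ since no named row below the level threshold was tested. With joined rows the count was 24, and without cell type markers it was 21. It was 13 when a called isoform was required, in a table with more features tested, and the cause was not tested. The single call toward SS.BN1 was lost at 5 FPKM or more (0), since Lilrb3 lies below that level. The share of members with the higher value in SS was 52.0% and became 57.6% at 5 FPKM or more, and the cause was not tested. The median log2 ratio stayed between 0.01 and 0.03 under its 8 alternatives. The distance between the highest and the lowest bin median was 0.11 in 10 Mb bins, 0.10 with a pseudocount of 1 and 0.20 in 5 Mb bins, some of which hold under 20 members. None of 180 recomputed ratios of 60 named genes changed sign under pseudocounts of 1 and 0.1 or summed isoforms. This could not have been otherwise and says nothing on robustness. An equal pseudocount keeps the order of the strains, and the isoforms sum to the gene value. For reads, p was 0.784 for the total and 0.0584 for the percent mapped.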
